A study of Danio rerio with 24 samples.

Results

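Zebrafish embryos exposed to TDCIPP were compared with vehicle controls at 2 hours post-fertilization (hpf), a cleavage stage at which the embryo still runs on RNA that the mother laid down in the egg. TDCIPP, tris(1,3-dichloro-2-propyl) phosphate, is a chlorinated organophosphate flame retardant. All pools whose labels give the 2 hpf collection were used: 3 pools of TDCIPP-exposed embryos (2 µM) and 3 pools of control embryos (0.1% DMSO), 6 of the 12 pools and 12 of the 24 arrays in the study. Embryos of the wild-type 5D strain entered the solutions at 0.75 hpf in glass beakers, each pool held 25 whole embryos, and its RNA was hybridized to 2 Zebrafish Gene 1.0 ST arrays. The other 6 pools had the same treatments and were collected at 6 hpf, in gastrulation. According to the methods, stock solutions of TDCIPP were made in DMSO, so that the comparison is of TDCIPP in vehicle with vehicle alone. A pool averages 25 embryos of all their cells, so fewer cells of a type and less RNA per cell cannot be told apart, and neither can a response of a few embryos and a weaker one of all.

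A newly fertilized egg carries a store of maternal mRNA. Those messengers supply the cyclins, histones, ribosomal proteins and patterning factors of the fast cleavage cycles, and a specialised germ plasm that marks the future germ cells. The embryo's own genome stays largely silent until the mid-blastula, when the maternal factors Pou5f3, Nanog and Sox19b open it and much of the maternal store is degraded. This handover is called the maternal-to-zygotic transition.

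Signals were log2 values from robust multichip analysis (RMA) for transcript clusters, the gene-level units of the array. Of 61240 clusters tested, 20856 carried 1 gene symbol, and 19298 genes were described by 1 cluster each. The collection time fitted its markers: against 6 hpf, over both treatments, 30299 clusters (49.5%) differed at an adjusted p under 0.1 in limma's test. Of 19 germ plasm genes measured, 16 were higher at 2 hpf and 1 at 6 hpf, while of 50 gastrula genes 3 were higher at 2 hpf and 42 at 6 hpf. Of all 19298 genes 7268 were higher at 2 hpf and 3876 at 6 hpf. The messenger of buc, which builds the germ plasm, fell by 2.96 log2 units from 2 to 6 hpf, and that of tbx16, a mesoderm transcription factor, rose by 7.50.

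The 6 pools correlated with each other at 0.9916 to 0.9959 across clusters. DMSO pool 2 stood apart from the other 5 on the first principal component (29.1% of the variance), with a score of 45.6 against -16.6 to 4.7, and took 22.9% of the squared deviations. The median SD between pools of a group was 0.136 log2 units, and 0.117 would follow from the differences between duplicate arrays alone. Gene lists below were counted with all pools and under 10 alternatives (each pool left out, either array alone, both rescalings), and counts without DMSO pool 2 are given where they differ in their majority. Of 31 lists and families, 23 lost their majority or tie in at least 1 alternative, and 8 kept it in all 10. The 8 were the genes of DNA methylation, histones, the cell cycle, the gastrula, cytosolic and mitochondrial ribosomal proteins, oxidative phosphorylation and translation initiation.

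At 2 hpf not a single cluster passed the test of TDCIPP against DMSO pools. In limma's test with Benjamini-Hochberg adjustment, 0 of 61240 clusters (0.0%) passed an adjusted p of 0.1, and the smallest adjusted p was 0.288. At an unadjusted p under 0.05 there were 1697 clusters (2.77%), 695 with a higher (1.13%) and 1002 with a lower mean (1.64%) in TDCIPP pools. Over all clusters 48.4% had a higher mean in TDCIPP pools. That split depended on the scaling, with 866 higher and 893 lower after quantile normalization was applied again and 840 and 730 after centring each array on its median. A test of each value by permutation could not go below 0.1 with 3 pools a side.

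The intervals of the differences bound the sizes that these pools allow. For 99.15% of clusters the moderated 95% interval of the difference lay within 1 log2 unit of 0, and for 87.06% within 0.5. For 33.77% it lay within 0.3. The median standard error was 0.112 log2 units, and among the 19298 genes 21 had a difference over 0.5 in size and 0 over 1. The plot of the differences against signal shows a band that narrows toward the bright genes, among them the abundant maternal messengers dnmt1, nanog and hspa8.

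**Figure D1:**
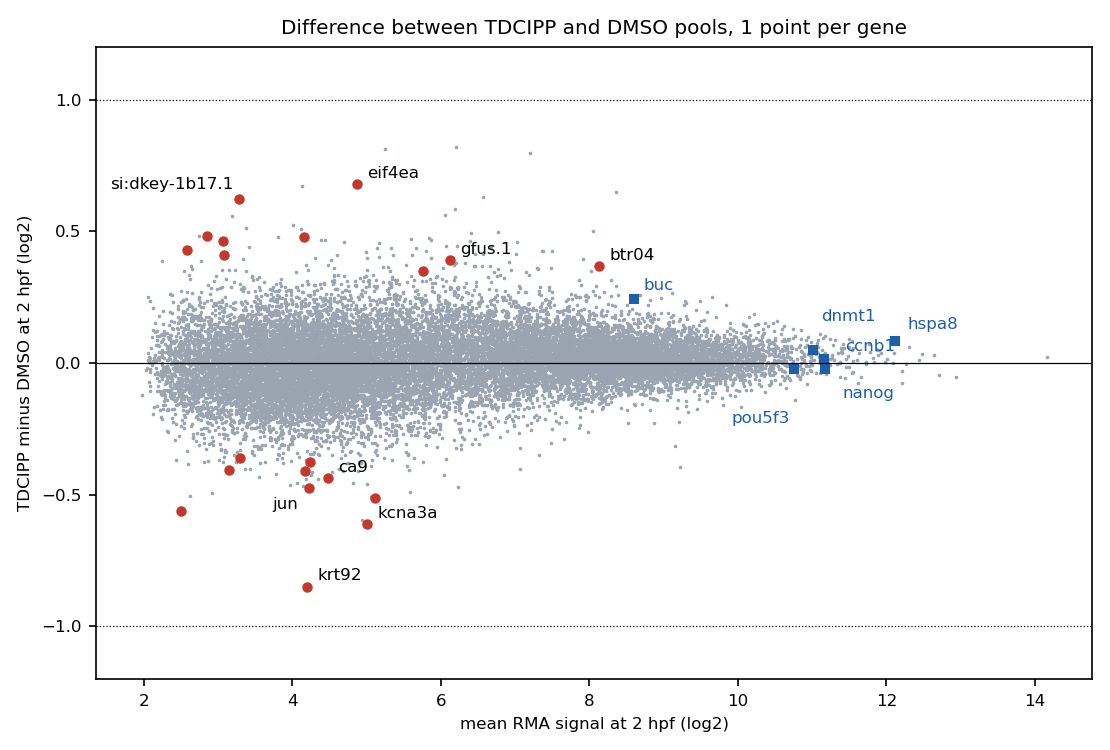
Difference between TDCIPP and DMSO pools at 2 hpf (y axis, log2) against the mean RMA signal (x axis, log2), 1 point for each of 19298 genes, with the 20 genes of smallest p as red circles and 6 maternal genes as blue squares. No gene lies beyond the dotted lines at 1 log2 unit, and krt92 is lowest at -0.85.

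The 10 genes per direction with the smallest p are described below, although none passed the adjustment. The members were picked by this comparison, so their values describe it and carry no further test. The lowest p among genes was that of krt92, a keratin of the enveloping layer, the outer epithelium of the blastula. It read 4.57, 4.52 and 4.76 in the DMSO pools and 3.71, 3.80 and 3.79 in the TDCIPP pools, a 1.80-fold lower mean (interval 1.54 to 2.1, n = 3 and 3, adjusted p = 0.461 in limma's test). All 3 TDCIPP pools lay below all 3 DMSO pools, and so did the single arrays, from 3.30 to 4.29 against 4.37 to 4.98. At 6 hpf the same messenger read 9.45 to 9.66 in DMSO pools and 9.45 to 9.88 in TDCIPP pools, so that the 2 hpf values come before most of its accumulation.

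The immediate early gene jun, whose product is part of AP-1, read 4.50, 4.52 and 4.38 in DMSO pools and 3.87, 4.07 and 4.04 in TDCIPP pools (difference -0.47, SE 0.10). Its pools did not overlap, whereas its single arrays did. For ca9, a carbonic anhydrase, the DMSO pools read 4.65, 4.74 and 4.71 and the TDCIPP pools 4.31, 4.28 and 4.21 (difference -0.44, SE 0.09). The tight pool values of ca9 were means of arrays that lay apart, with a gap of up to 0.78 between duplicates and a difference of -0.76 on the first arrays against -0.11 on the second. The potassium channel gene kcna3a read 5.16, 5.67 and 5.12 against 4.55, 4.76 and 4.80 (difference -0.61, SE 0.16), again with -1.08 on the first arrays and -0.14 on the second. The remaining genes with lower means were LOC570163 (-0.56), zgc:174354 (-0.51), ompa (-0.41), si:dkey-210j14.3 (-0.41), nkain5 (-0.38) and the protease inhibitor gene spink2.5 (-0.36), all as differences in log2 signal.

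Among genes with higher means, eif4ea, which encodes a cap-binding translation initiation factor, read 4.39, 4.34 and 4.86 in DMSO pools and 5.06, 5.44 and 5.12 in TDCIPP pools, a 1.60-fold higher mean (interval 1.24 to 2.06, adjusted p = 1.0 in limma's test). Its difference was alike on both sets of arrays, 0.69 and 0.67. The uncharacterised gene si:dkey-1b17.1 read 3.01, 3.20 and 2.70 against 3.68, 3.64 and 3.48 (difference 0.62, SE 0.14). The histone variant gene macroh2a2 read 3.98, 3.91 and 3.86 against 4.50, 4.50 and 4.20 (difference 0.48, SE 0.11), while a further cluster of the gene, with a mean of 3.76 in DMSO and 3.48 in TDCIPP pools, pointed the opposite way (difference -0.28, SE 0.17). The clusters of macroh2a2 thus had opposite signs. For gfus.1, a GDP-fucose synthesis gene, the values were 5.83, 5.82 and 6.11 against 6.28, 6.35 and 6.32. The adhesion gene nectin1a (0.35) and btr04 (0.37) were the others with a mean signal over 5, and jac1 (0.43), cfhl2 (0.41), gna15.2 (0.46) and ifit12 (0.48) read below it.

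Of the 20 genes, 15 had a mean log2 signal under 5, as had 7969 of all 19298 genes (41.3%). Duplicate arrays of 1 RNA differed by up to 1.57 log2 units (gna15.2). For 3 of the 20 (krt92, jac1 and nectin1a) the 6 TDCIPP arrays did not overlap the 6 DMSO arrays. The pool means of all 20 were separate, which follows from choosing them by p on those means, and nothing is read from either count. Over all clusters single arrays did not overlap for 91 (0.149%) and pool means for 4524 (7.39%), of which 1898 (3.1%) were higher and 2626 (4.29%) lower in TDCIPP. The plot of pools with their arrays shows both the separation of the means and the width of the duplicates.

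**Figure D2:**
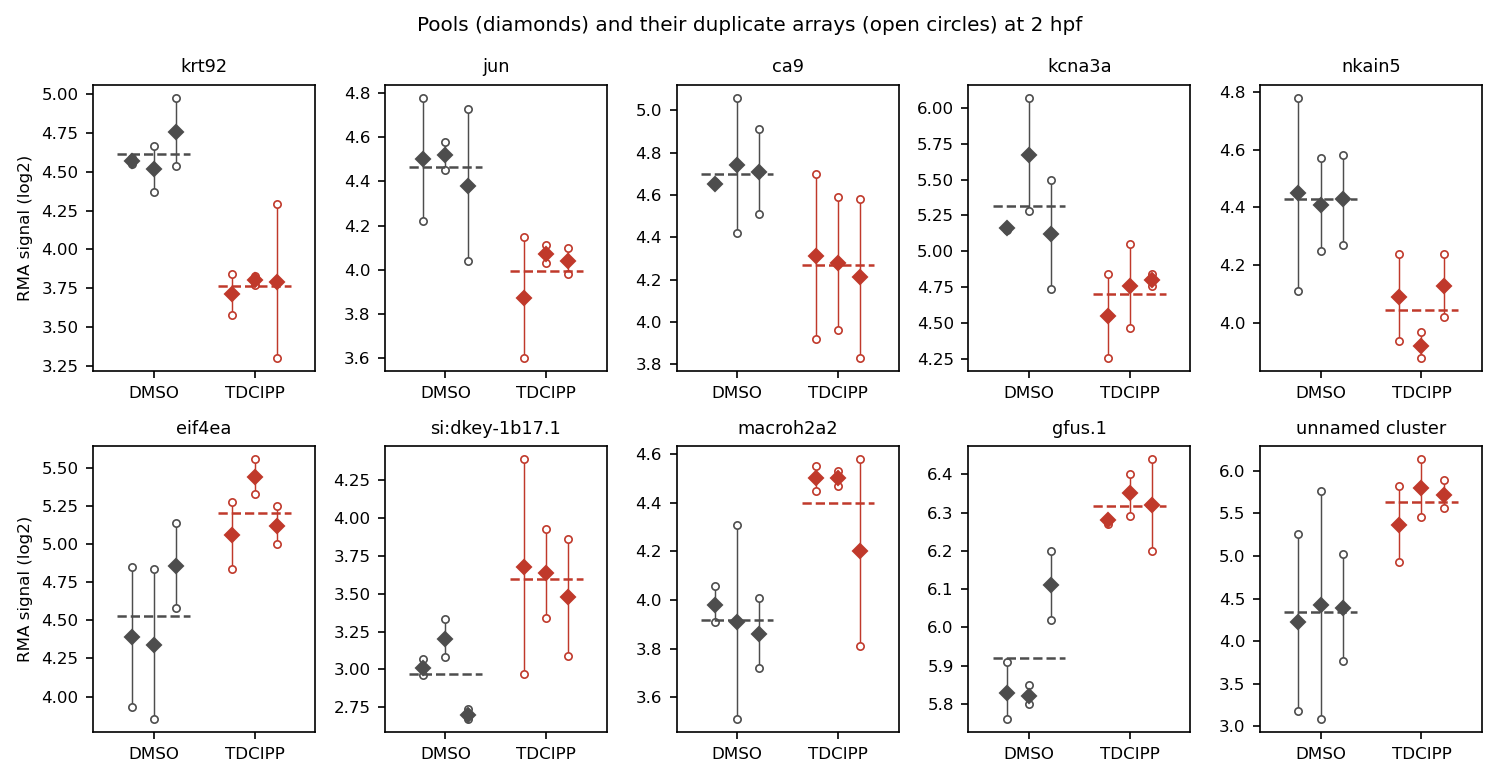
RMA signal (y axis, log2) of 9 genes and 1 unnamed cluster in the 3 DMSO pools (grey) and 3 TDCIPP pools (red) at 2 hpf, with pool means as diamonds, duplicate arrays as open circles and group means as dashed lines. Pool means do not overlap in any panel, while duplicate arrays of 1 pool lie up to 2.70 log2 units apart in the unnamed cluster.

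The clusters with no gene symbol included larger differences. Cluster 12944221, which had the smallest p of all, read 4.22, 4.42 and 4.39 in DMSO pools and 5.37, 5.80 and 5.72 in TDCIPP pools (difference 1.29, SE 0.13, adjusted p = 0.288 in limma's test). Its DMSO arrays, however, read 5.26 and 3.18 in pool 1, 3.08 and 5.77 in pool 2 and 3.77 and 5.02 in pool 3. The pool means were close because high and low arrays offset each other, and single arrays of the groups overlapped. Cluster 13045636 read 4.26, 3.97 and 4.79 against 5.38, 5.41 and 5.46. With lower values in TDCIPP pools, cluster 13211436 read 6.31, 6.39 and 6.43 against 5.28, 4.62 and 5.49, and cluster 13063338 read 6.01, 5.83 and 6.03 against 5.11, 4.43 and 5.05. For cluster 13211436 one pair of duplicates lay 3.68 log2 units apart.

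Duplicate arrays allowed the same comparison to be made on the first and on the second array of each pool. Across 19298 genes the differences from the first arrays and those from the second had a correlation of 0.102, as a description, with 53.3% of genes on the same side of 0. Both sets came from the same RNA, and genes are not independent replicates. The 20 genes with the smallest p on the first arrays had a median size of 0.65 log2 units there and of -0.02 in the same direction on the second arrays, where 7 of the 20 kept their sign. For the 100 such genes the medians were 0.51 and 0.02, and 51 kept their sign. The gene krt92 differed by -0.66 on the first and -1.04 on the second arrays, but it was picked on the means of both. All 20 genes picked in that way kept their sign on both sets of arrays, which the choice favours.

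**Figure D3:**
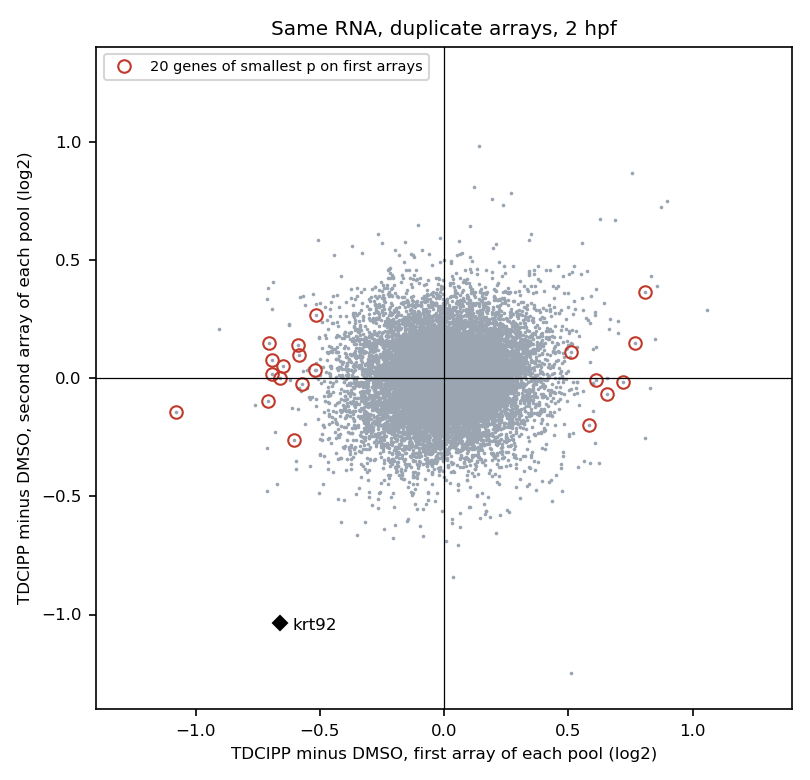
Difference between TDCIPP and DMSO pools at 2 hpf on the second array of each pool (y axis, log2) against that on the first array (x axis, log2), 1 point for each of 19298 genes. The 20 genes with the smallest p on the first arrays (red circles) spread around 0 on the second. The gene krt92 (black diamond), picked on the means of both arrays, lies at -0.66 and -1.04.

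No germ plasm or egg gene passed the adjustment. Of 19 germ plasm and piRNA genes 16 had a higher mean in TDCIPP pools, with a median difference of 0.04 against 0.01 over all genes (10170 of 19298 genes higher, 52.7%), and 0 reached an unadjusted p under 0.05. Without DMSO pool 2 the count was 9 of 19 and the median -0.01, and after renewed quantile normalization 13 of 19. On the first arrays alone 16 of 19 were higher and on the second arrays alone 6 of 19. The organizer of the germ plasm, buc, read 8.31, 8.48 and 8.62 in DMSO pools and 8.57, 8.80 and 8.79 in TDCIPP pools, a difference of 0.25 (interval -0.02 to 0.51), and the pools overlapped. The translational regulator of germ cells dazl read 10.91, 10.83 and 10.93 against 10.94, 10.97 and 10.98 (0.07). Differences for nanos3 (0.09), the germ cell helicase gene ddx4 (0.07) and dnd1 (-0.06) had intervals within 0.5 log2 units of 0. Among 32 egg genes 20 were higher (15 without DMSO pool 2). The single one under 0.05 was ca9, described above, beside 2.06% of all genes. Although ca9 stood in that list, it read 4.70 in DMSO pools at 2 hpf and 9.19 at 6 hpf, so its level rose with time. The oocyte genes zar1 and gdf9, the latter a growth factor, differed by 0.11 and -0.11, the meiotic kinase gene mos by 0.09 and the nucleoplasmin gene npm2b by 0.18.

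For the maternal activators of the zygotic genome the differences were close to 0 and their intervals narrow. The homeodomain gene nanog read 11.26, 11.20 and 11.12 in DMSO pools and 11.23, 11.15 and 11.13 in TDCIPP pools, a difference of -0.02 (interval -0.23 to 0.18). For pou5f3 the values were 10.93, 10.67 and 10.71 against 10.92, 10.65 and 10.67 (-0.02, interval -0.28 to 0.24), and for sox19b 9.66, 9.43 and 9.57 against 9.62, 9.50 and 9.47 (-0.02, interval -0.25 to 0.20). All 3 genes had overlapping pools. Of 30 activators and cofactors 11 were higher and 19 lower (16 and 14 after centring on medians, 17 and 13 on the first arrays alone), with differences from -0.14 to 0.20, the latter that of the zygotic SoxB1 gene sox19a, and cdk9, a kinase that releases paused RNA polymerase, differed by 0.14. In the machinery that clears maternal messengers 31 of 52 genes were higher, with a median of 0.02, and the count ranged from 22 (second arrays alone) to 42 (without TDCIPP pool 3) over the alternatives. The m6A reader gene ythdf2 differed by 0.02 (interval -0.20 to 0.24) and the deadenylase adaptor gene btg4 by 0.07 (interval -0.16 to 0.30). The decapping gene lsm1 (0.19) and the Smaug homolog samd4a (-0.16) had the smallest p in the list.

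Genes that write, read and erase DNA methylation were examined because the exposure covers a window in which the embryonic methylome is reset. Of 34 genes for methylation enzymes, readers and methyl donor synthesis, 19 were higher and 15 lower, the median difference was 0.02, and 0 reached an unadjusted p under 0.05. The maintenance methyltransferase gene dnmt1 read 11.04, 10.92 and 11.01 in DMSO pools and 11.10, 10.97 and 11.05 in TDCIPP pools (0.05, interval -0.16 to 0.25). For its partner uhrf1, which recruits it to hemimethylated DNA, the difference was 0.02 (interval -0.19 to 0.24), for the de novo methyltransferase gene dnmt3bb.2 0.04 (interval -0.26 to 0.33) and for hells, a chromatin remodeler needed for methylation, 0.08 (interval -0.14 to 0.29). None of these 4 intervals reached 0.5 log2 units, a 1.41-fold difference. The members with the smallest p were gadd45aa, ahcyl1 (-0.19) and the methyl donor genes shmt1 (0.17) and mtrr (0.17). The gene gadd45aa, linked to demethylation in repair, read 4.40, 4.14 and 4.53 against 4.13, 3.99 and 4.17. The pools of gadd45aa overlapped and those of the other 3 did not, as for 1170 of all 19298 genes (6.06%). Having been named for their small p, they were likely to be separate. Of 28 histone variant and chaperone genes 19 were higher (16 without DMSO pool 2). The single member under 0.05 was macroh2a2, beside 2.06% of all genes. Next by p were nap1l4b (0.19), ssrp1a (0.13) and anp32b (0.14), which handle histones during assembly.

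**Figure D4:**
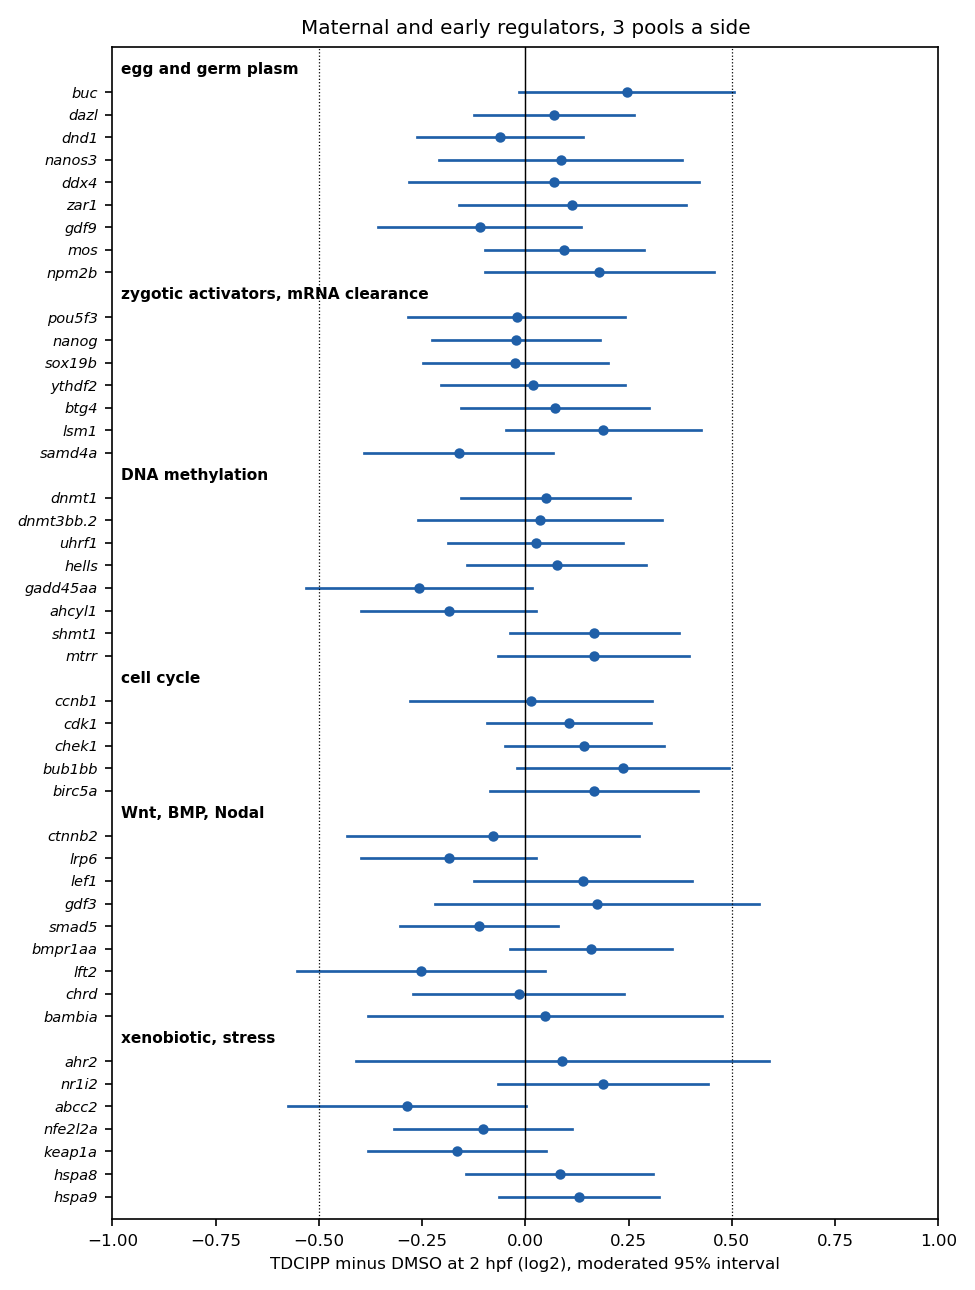
Difference between TDCIPP and DMSO pools at 2 hpf (x axis, log2) for maternal and early regulatory genes in 6 groups, with points for the means of 3 pools a side and bars for moderated 95% intervals. All intervals include 0, and most lie inside the dotted lines at 0.5 log2 units.

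Cell cycle messengers, which the cleavage divisions draw on, had small differences of mostly 1 sign, and the size of this majority depended on the setting. Of 52 genes 40 had a higher mean in TDCIPP pools with a median of 0.04, and 0 reached 0.05. Without DMSO pool 2 the count was 28 of 52 and the median 0.01, and after renewed quantile normalization it was 29 of 52. With all pools, the second arrays alone gave 27 of 52. The mitotic cyclin gene ccnb1 read 11.27, 10.91 and 11.28 against 11.30, 11.03 and 11.16, low in pool 2 of both groups, with a difference of 0.01 that was -0.01 after renewed normalization. Its kinase partner cdk1 differed by 0.10 (interval -0.09 to 0.30). The spindle checkpoint gene bub1bb read 9.33, 8.96 and 9.22 against 9.36, 9.41 and 9.45, again with the low value in DMSO pool 2. The checkpoint kinase gene chek1 (0.14), birc5a of the chromosomal passenger complex (0.17) and the replication licensing gene mcm6 (-0.14) followed in order of p.

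Housekeeping families, which are brightly expressed, were counted in the same way. Higher means were found for 53 of 68 cytosolic ribosomal protein genes (40 without DMSO pool 2), 49 of 67 mitochondrial ribosomal protein genes (46), 66 of 99 nuclear oxidative phosphorylation genes (62), 44 of 59 translation initiation factor genes (34) and 43 of 71 splicing genes (28, a turn in the majority). Medians in these families were 0.02 to 0.04 log2 units. At signals of 6 to 8 the share of all genes with a higher mean was 62.0%, and at signals of 3 to 4 it was 42.1%. After renewed quantile normalization those shares were 53.6% and 47.9%, and without DMSO pool 2 they were 54.3% and 53.5%. Among ribosomal genes rps27l (5.27, 4.97 and 5.50 against 5.35, 5.74 and 5.60) and rpl35a (0.19) had the smallest p, and a further cluster of rps27l gave -0.18 (SE 0.14). Of the mitochondrial set mrps14 (0.30, adjusted p = 1.0 in limma's test) was the one under an unadjusted 0.05, beside 2.06% of all genes. Of the initiation factors eif3ja (0.24) and eif3f (0.15), both of the eIF3 complex, followed eif4ea.

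**Figure D5:**
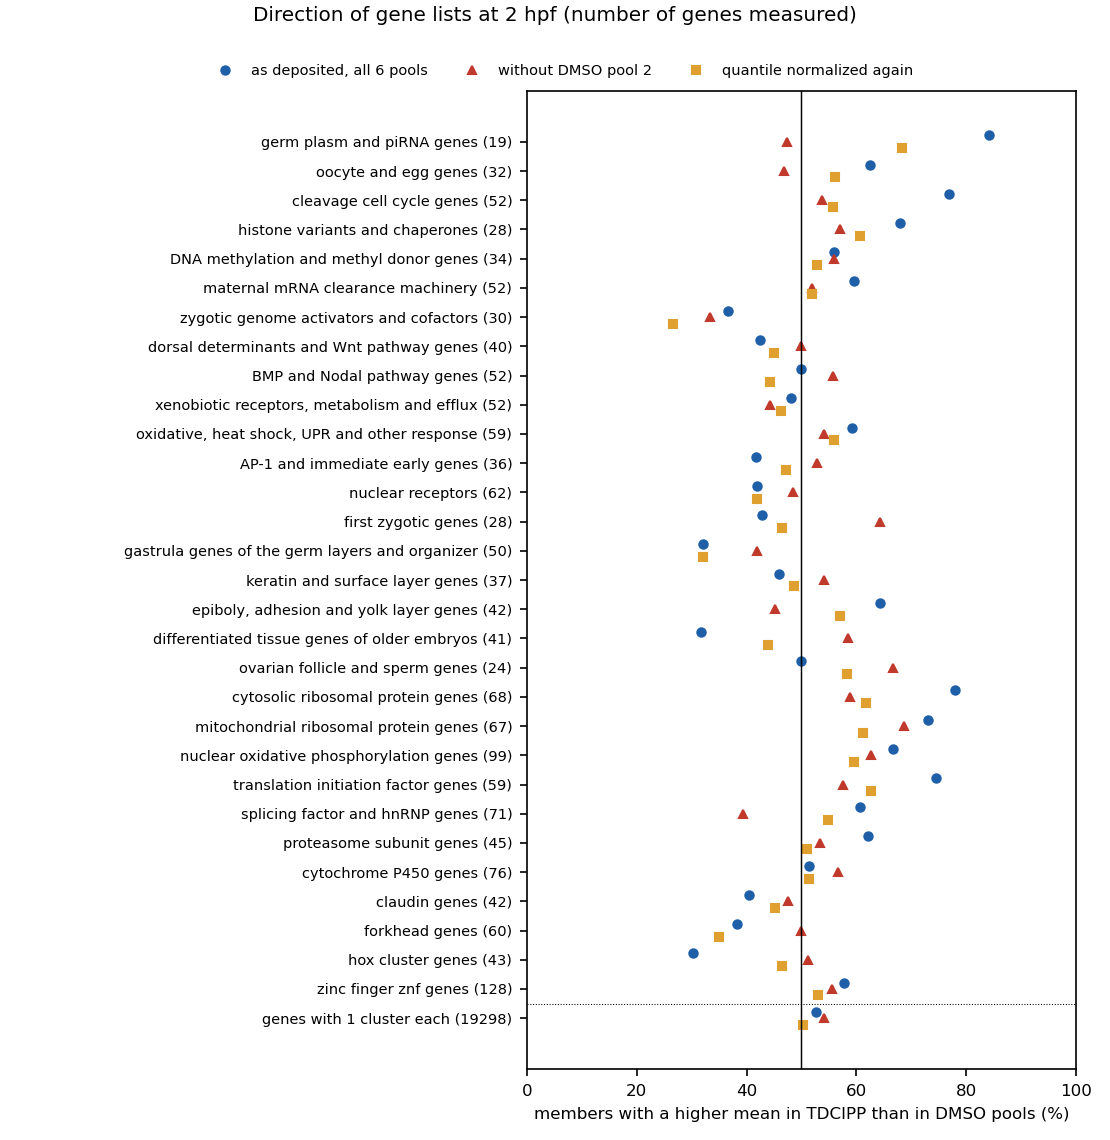
Percent of the members of each gene list with a higher mean in TDCIPP than in DMSO pools at 2 hpf (x axis), for all 6 pools (blue circles), without DMSO pool 2 (red triangles) and after renewed quantile normalization (yellow squares), with the number of genes measured in brackets and all genes in the last row. Germ plasm genes move from 84.2% to 47.4% and splicing genes from 60.6% to 39.4% without DMSO pool 2.

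The axis-forming pathways were examined because the study followed dorsoventral patterning. Maternal Wnt signalling through beta-catenin sets the dorsal side, and bone morphogenetic protein (BMP) signals through Smad5 later specify ventral fates. Of 40 dorsal determinant and Wnt genes 17 were higher and 23 lower (median -0.01, and 20 and 20 without DMSO pool 2), and of 52 BMP and Nodal genes 26 were higher and 26 lower (29 and 23 without that pool), with 0 under 0.05 in both lists. The maternal beta-catenin gene ctnnb2 read 10.88, 10.32 and 10.63 against 10.74, 10.46 and 10.40 (-0.08, interval -0.43 to 0.27). For the Wnt co-receptor gene lrp6 the values were 6.62, 6.51 and 6.41 against 6.30, 6.31 and 6.36, without overlap. Pools were separate for 0 higher and 2 lower of the 40 genes, and for 1170 of all 19298 genes (6.06%). The transcription factor gene lef1 (0.14) and the receptor gene fzd7a (-0.25) overlapped. The Wnt antagonist gene sfrp1a had a difference of 0.63 with an SE of 0.53, since DMSO pool 2 read 4.78 and the other 5 pools 6.41 to 7.17, and it was -0.10 without that pool.

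Among BMP genes smad5 read 9.64, 9.60 and 9.66 in DMSO pools and 9.55, 9.50 and 9.51 in TDCIPP pools (-0.11, interval -0.30 to 0.08). The type I receptor gene bmpr1aa read 6.65, 6.64 and 6.72 against 6.77, 6.86 and 6.85 (0.16, interval -0.04 to 0.35), but a further cluster of the gene gave -0.18 (SE 0.14). The pools of smad5 and of this cluster of bmpr1aa did not overlap. That held for 1 higher and 2 lower of the 52 BMP and Nodal genes, and for 6.06% of all genes. The maternal Nodal partner gene gdf3, also known as Vg1, differed by 0.17 (interval -0.22 to 0.57). The Nodal antagonist gene lft2 (-0.25), the transcriptional co-repressor gene skia (-0.21) and the BMP antagonist gene nbl1 (-0.17) had the smallest p with bmpr1aa. Chordin (chrd), the BMP antagonist of the organizer, and bambia, a decoy receptor, differed by -0.02 and 0.05.

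Receptors, enzymes and pumps that handle foreign chemicals were examined as a list. Of 52 xenobiotic genes 25 were higher and 27 lower, with 0 under 0.05. The aryl hydrocarbon receptor gene ahr2 read 6.19, 6.12 and 6.83 against 6.36, 6.20 and 6.85, with pool 3 high in both groups (0.09, interval -0.41 to 0.59). The pregnane X receptor gene nr1i2 (0.19), the efflux pump gene abcc2 (-0.29) and the sulfotransferase gene sult1st1 (0.19) had unadjusted p above 0.05. Of 76 cytochrome P450 genes 39 were higher and 37 lower (36 and 40 on the second arrays alone), and 3 reached 0.05, against 397 of all 19298 genes (2.06%). These 3 were higher: cyp2x9 (2.80, 2.70 and 2.79 against 3.04, 3.07 and 3.04), cyp2aa4 (0.56) and cyp2k20 (0.32). All 3 had means under 4 in both groups, and the difference of cyp2x9 was 0.05 on the first and 0.52 on the second arrays. Of all genes at signals of 3 to 4, 3.72% were under 0.05, and the median P450 signal in DMSO pools was 3.75. Another P450 gene, cyp2aa8, differed by 0.05 (interval -0.76 to 0.87), a wide interval. The largest difference in the family was that of cyp2x7, picked after its values were seen, at 0.80 with an SE of 0.68, and its pools read 8.30, 5.02 and 7.07 against 8.15, 7.22 and 7.42. Of 59 oxidative, heat shock, unfolded protein and other stress response genes 35 were higher and 24 lower (28 and 31 on the second arrays alone) and 0 reached 0.05, among them the Nrf2 gene nfe2l2a (-0.10, interval -0.32 to 0.11), its inhibitor keap1a (-0.17), the chaperone genes hspa8 (0.08, interval -0.14 to 0.31) and hspa9 (0.13), and the stress gene gadd45bb (0.27). A cluster of cyp1a with a symbol of its own was not analysed here.

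AP-1 and immediate early genes numbered 15 higher and 21 lower of 36 (19 and 17 without DMSO pool 2, on the second arrays alone and after centring), with jun the single member under 0.05. Its relatives junba (-0.29), jdp2b (-0.19) and fosaa (-0.14) had lower means with overlapping pools, and that of junba was 0.03 on the first and -0.61 on the second arrays. Of 62 nuclear receptor genes 26 were higher and 36 lower (32 and 30 on the first arrays alone). The bile acid receptor gene nr1h4 read 3.61, 3.59 and 3.79 against 3.99, 4.02 and 3.80, and the estrogen receptor gene esr2b 4.83, 4.85 and 4.84 against 4.70, 4.64 and 4.47, the 2 members under 0.05. Of all genes 2.06% were under 0.05.

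Genes that the embryo itself later transcribes were mostly dimmer at this stage than at 6 hpf. Of 28 first zygotic genes 12 were higher and 16 lower (18 and 10 without DMSO pool 2), and 25 of the 28 were higher at 6 hpf, with a median rise of 4.44 log2 units over the list. Of all 19298 genes 3876 were higher at 6 than at 2 hpf. The blastula gene klf17 read 3.85, 4.53 and 4.27 against 3.75, 4.33 and 4.22, low in pool 1 of both groups, and mxtx2, a regulator of the yolk syncytial layer, differed by -0.28. Of 50 gastrula genes 34 were lower in TDCIPP pools (29 without DMSO pool 2 and 34 after renewed quantile normalization) with a median of -0.05, and 3 were under 0.05, against 2.06% of all genes: dlx5a (-0.31), the ephrin gene efnb1 (5.17, 5.11 and 4.96 against 4.84, 4.93 and 4.56) and the brachyury gene tbxtb (3.96, 4.03 and 4.09 against 3.74, 3.84 and 3.83). The pools of these 3 and of msx3 (-0.22), named for their small p, did not overlap, as for 1170 of all 19298 genes (6.06%). In the keratin and surface list 3 of 37 were under 0.05, beside the same 2.06%, krt92, cyt1l (-0.28) and krt1-19d (-0.21), with 20 lower in all and 17 without DMSO pool 2, and for cyt1l the difference was -0.70 on the first and 0.15 on the second arrays. The gastrula and keratin lists had median signals of 4.92 and 4.45 in DMSO pools. Of all genes at signals of 4 to 5, 3.39% were under 0.05. Of 42 claudin genes of tight junctions 17 were higher and 25 lower (23 and 19 on the second arrays alone), and the smallest p belonged to cldn3d (4.50, 4.54 and 4.35 against 3.98, 4.17 and 4.23) and cldne (-0.30). In the epiboly list, 27 of 42 were higher (19 without DMSO pool 2), and the widest spread was that of map1lc3b, an autophagy gene, with 7.98, 6.58 and 7.36 against 7.96, 7.35 and 7.68.

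Genes of later tissues and of other cell types were counted too. Of 43 hox genes, which pattern the later body axis, 30 were lower in TDCIPP pools with a median of -0.03. Under 0.05 were 3 (hoxa13a -0.30, hoxd13a -0.24 and hoxa2b -0.30), with 2.06% of all genes and 3.72% of those at signals of 3 to 4. The median signal of the hox genes was 3.89 in DMSO pools. Without DMSO pool 2 the count of lower genes was 21 of 43. Of 41 genes of differentiated tissues 28 were lower (17 without DMSO pool 2) and 0 reached 0.05. Against the other time 2 of the 41 were higher at 2 hpf and 4 at 6 hpf, beside 7268 and 3876 of all 19298 genes. The median signal of the 41 genes was 3.97 to 4.12 in the DMSO pools and 4.01 to 4.28 in the TDCIPP pools. The 24 ovarian follicle and sperm genes split 12 and 12 (16 and 8 without DMSO pool 2), with median signals of 3.58 to 3.87 and 3.68 to 3.94. Of 128 zinc finger genes 74 were higher (59 on the second arrays alone). Under 0.05 were 3 higher and 2 lower ones, beside the same 2.06% of all genes. Among them were znf1001 (5.0, 4.83 and 4.58 against 5.04, 5.41 and 5.16) and znf1065 (0.24), a gene whose further cluster gave -0.62 (SE 0.28).

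The 2 hpf differences were set beside those at 6 hpf, which share no pool with them. In a fit of all 12 pools, 0 of 61240 clusters (0.0%) had an effect of TDCIPP that differed between the times at an adjusted p under 0.1, with a smallest adjusted p of 0.14 and 2645 clusters (4.32%) at an unadjusted p under 0.05. Across 19298 genes the differences at both times had a correlation of 0.01, as a description. At 6 hpf too 0 clusters (0.0%) passed the adjusted threshold in limma's test, and 3356 (5.48%) had an unadjusted p under 0.05, against 1697 at 2 hpf. The study itself reported transcripts under a false discovery rate of 0.1 at 6 hpf, among them bambia, chrd and bmpr1aa, and none at 2 hpf. The transcript it found most affected, szl, had no cluster under that symbol here. The study's methods do not state that duplicate arrays were averaged, as they were here. The cause of the unlike counts was not tested. Differences over 0.5 log2 units numbered 141 genes at 6 hpf and 21 at 2 hpf, with median standard errors of 0.121 and 0.112.

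Genes with large differences at 6 hpf, chosen with those values known and none of them past the adjustment there in limma's test on pool means, had smaller differences at 2 hpf. Choosing by size at 6 hpf favours that outcome, so nothing is read from the contrast. Levels also differ between the times, as given for tbx16 above, and whether this bears on the differences was not tested. The ectoderm gene tfap2c differed by -1.61 at 6 hpf (SE 0.22, adjusted p = 0.321 in limma's test) and by -0.20 at 2 hpf (SE 0.12), and foxi1, a gene of ventral ectoderm, by 1.33 (SE 0.24) and -0.10 (SE 0.12). Values at 6 and 2 hpf were 0.90 and -0.02 for the calponin gene cnn2, 0.97 and 0.12 for the forkhead gene foxb1a, 0.65 and -0.02 for chrd, -0.76 and 0.05 for bambia, -0.89 and -0.07 for kazald2, and -0.89 and -0.24 for the growth factor gene igf2a. For tbx16 they were -0.26 and 0.02, with a 2 hpf interval of -0.58 to 0.62. The study lists foxb1a as lower in exposed embryos at 6 hpf, opposite in sign to the 0.97 here, and the cause was not tested. The difference between the times did not pass the adjustment for any of these genes in limma's test.

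In the other direction, genes nearest to a difference at 2 hpf had either sign at 6 hpf. Of the 20 genes, 10 had the opposite sign at 6 hpf and 9 had an unadjusted p under 0.05 for the change of effect, a test that uses the 2 hpf values by which they were picked. For krt92 the effect was -0.85 at 2 hpf and 0.17 at 6 hpf (SE 0.13, adjusted p of the change = 0.291 in limma's test). The AP-1 gene jun read 6.24, 6.18 and 6.52 in DMSO pools at 6 hpf and 6.64, 6.71 and 6.93 in TDCIPP pools, a difference of 0.45 (SE 0.13) against -0.47 at 2 hpf (adjusted p of the change = 0.429). For efnb1, which is not among the 20, the 6 hpf pools read 7.04, 7.18 and 7.27 against 7.71, 8.04 and 8.42. Its difference turned from -0.30 to 0.90 (adjusted p of the change = 0.575 in limma's test). The pair of values for bmpr1aa, also outside the 20, was 0.16 at 2 hpf and -0.52 at 6 hpf (SE 0.10, adjusted p of the change = 0.375 in limma's test). Its 2 hpf interval included 0 and its further cluster gave -0.18 at 2 hpf, so no turn in sign is read from it.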

How the data were processed

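Gene expression was measured on Zebrafish Gene 1.0 ST arrays. Per the labels, the authors summarised the probes of each transcript cluster in Affymetrix Expression Console with RMA and deposited 1 table of log2 signals for 24 arrays; GRCz10 and the Transcriptome Analysis Console are also named in their processing notes, without versions. RMA makes the arrays' distributions alike, so a shift common to all genes cannot be seen. Groups came from the labels. The 2 arrays of a pool, 1 RNA sample, were averaged, and the 3 pools of a group were the replicates (triplicate beakers per the methods). Of 75212 rows, 13972 below the first annotated cluster, none with a symbol, were left out, and 61240 were tested. Symbols were updated through the RefSeq gene table, with 20323 clusters matched to a current gene. A gene with several clusters (1377 genes) was described by its brightest.

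Differences between TDCIPP and DMSO pools were tested two-sided with lmFit and eBayes of the limma package, version 3.58.1 (R 4.3.3). The p-values were adjusted by Benjamini and Hochberg's method over all clusters with a threshold of 0.1. This replaced the methods' test, a one-way analysis of variance, which was an alternative and was run on pool means. The methods do not state that duplicate arrays were averaged, so the study's own test was not repeated exactly. Intervals are moderated 95% intervals. The change of effect between 2 and 6 hpf was the interaction term of a fit to all 12 pools. Array number limits precision, and signals are relative within a cluster. The fit was tested on simulated data. Python 3.11.15, pandas 2.3.3, numpy 2.4.6 and matplotlib 3.10.9 were also used. Named were the 10 genes per direction with the smallest p, up to 4 members of each of 19 lists and 15 families by p, a fixed set, and the 2 clusters without a symbol per direction with the smallest p; tet3, wee1, hwa and cyp1a of the fixed set were not analysed here. Members and lists were chosen with earlier results of these data known, and the ribosomal family was freed of kinase genes after its members were seen. Alternatives changed the normalization, the use of duplicate arrays, the filter on dim clusters, the rows tested, the test and the pools included.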

Additional observations from a re-analysis of the deposited data

How the results depend on the processing

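No cluster passed the adjustment at 2 hpf under any alternative run, with smallest adjusted p from 0.112 (first arrays alone) to 1 and limma, apart from the methods' test, as the tool. At an unadjusted p under 0.05 there were 2889 clusters on the first arrays alone, against 1697. Restricting the fit to clusters with a mean signal of at least 5 gave 359, to those with 1 symbol 444, and testing all rows 2665, from other numbers of clusters tested. Leaving out each pool gave 1570 to 2211, and the methods' test, run here on pool means, 2148. For the change of effect between 2 and 6 hpf, 8 clusters passed with the pool as a random block, 18 with each array as a sample, which counts duplicates of 1 RNA as replicates, and 2 with trended, robust moderation. Leaving out each pool gave 0 to 3, with 3 without TDCIPP pool 2 at 6 hpf and 2 without DMSO pool 3 at 6 hpf. Apart from the altered numbers of clusters and samples, the cause was not tested.

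The labels number the pools 1 to 3 in both groups, but do not say what a number stands for. Over all clusters the deviations of same-numbered pools at 2 hpf had correlations of 0.249, 0.052 and 0.118, against -0.223 to 0.081 for differently numbered ones. There DMSO pool 2 correlated better with TDCIPP pool 3 (0.081) than with TDCIPP pool 2 (0.052). At 6 hpf the values were 0.183, 0.122 and 0.089, against -0.128 to 0.01, and every pool correlated best with its own number. As not every pair exceeded 0.1, the block was kept as an alternative, and not every pool correlated best with its own number. The genes that varied most between pools, given under the other observations, had higher values, a hint from the data and not from the design. With the replicate number as a block, 0 clusters passed at 2 hpf and 1994 had an unadjusted p under 0.05, and 0 passed for the change of effect, with 3293 under 0.05.

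Of 119 genes named with a difference, 89 kept their sign in every alternative run and 30 did not, and none passed in any. On the first arrays alone, the log2 difference changed sign for nanog (0.022), sox19b (0.046), junba (0.031), tbx16 (-0.186), cnn2 (0.034) and msx3 (0.099). On the second arrays alone, the log2 difference changed sign for dazl (-0.039), ddx4 (-0.011), pou5f3 (0.031), dnmt3bb.2 (-0.007), ctnnb2 (0.011), chrd (0.114), bambia (-0.032), cyp2aa8 (-0.211), foxb1a (-0.026), kazald2 (0.011) and cyt1l (0.15). After renewed quantile normalization it did so for ccnb1 (-0.007). As the mean of all clusters of the gene it did so for sox19b (0.013), bmpr1aa (-0.01) and znf1065 (-0.192). When each pool was left out in turn, the lowest and highest differences lay on both sides of 0 for nanos3 (-0.026 to 0.155), ddx4 (-0.036 to 0.208), pou5f3 (-0.109 to 0.058), nanog (-0.058 to 0.009), sox19b (-0.086 to 0.029), ythdf2 (-0.034 to 0.072), btg4 (-0.002 to 0.13), dnmt3bb.2 (-0.046 to 0.156), uhrf1 (-0.023 to 0.064), ccnb1 (-0.109 to 0.081), ctnnb2 (-0.223 to 0.058), sfrp1a (-0.104 to 1.057), chrd (-0.091 to 0.051), bambia (-0.113 to 0.22), ahr2 (-0.103 to 0.314), cyp2aa8 (-0.336 to 0.358), klf17 (-0.301 to 0.059), tbx16 (-0.289 to 0.271), igf2a (-0.379 to 0.023), foxb1a (-0.002 to 0.229), cnn2 (-0.151 to 0.144), kazald2 (-0.215 to 0.038), map1lc3b (-0.002 to 0.695) and cyp2x7 (-0.09 to 1.551).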

Other observations

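Some genes varied between pools of 1 group far more than between duplicate arrays. At 2 hpf 159 of 19298 genes had an SD between pools over 0.5 log2 units, against 114 at 6 hpf and 14 at both times, while the median SD over all genes was 0.136 and 0.146. These genes were picked after their values were seen. The adaptor gene pik3ap1 read 4.79, 8.27 and 5.31 in DMSO pools and 4.79, 7.16 and 5.95 in TDCIPP pools, high in pool 2 of both groups, with a median gap of 0.15 between duplicate arrays. At 6 hpf its pools read 4.32 to 5.13. The actin regulator gene mical1 was low in pool 2 of both groups, with 6.42, 4.92 and 6.57 against 6.51, 4.48 and 6.71, and so was dck, which encodes deoxycytidine kinase, with 6.38, 4.85 and 5.83 against 6.88, 4.43 and 6.45. The steroid dehydrogenase gene hsd3b1 was high in pool 3 of both groups, with 3.41, 3.75 and 4.45 against 3.29, 3.24 and 5.31. The junction gene jupa read 7.62, 6.77 and 8.14 against 7.56, 6.65 and 8.69, and its duplicate arrays had a median gap of 0.08. Not every such gene had the same order of pools in both groups: herc56.3 read 4.78, 3.39 and 5.0 against 5.27, 5.06 and 3.84.

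Over these 159 genes the deviations of same-numbered DMSO and TDCIPP pools from their group means had correlations of 0.67, 0.50 and 0.67, as a description. Those of differently numbered pools lay between -0.44 and -0.15. Deviations from a group mean sum to 0 for each gene, so positive same-numbered values make the others negative on average. The labels do not say what pools with the same number share. A fit without the block takes this spread as its error, and 0 of the 159 had an unadjusted p under 0.05 there in limma's test. The choice of genes by their spread favours that count. With the replicate number as a block 13 of the 159 had an unadjusted p under 0.05 for TDCIPP against DMSO in limma's test, and 0 passed the adjustment. The share over all clusters, with or without a symbol, was 3.26%. The block takes out spread between pools, by which these genes were picked, so nothing is read from the 13.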
